A study of Homo sapiens with 12 samples.

Results

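The genes that drive or mark the epithelial-mesenchymal transition (EMT) were followed in HK-2 cells, an immortalised human proximal tubular epithelial cell line, treated with TNF-α and short-chain fatty acids (SCFAs). They were taken as a list of 10 genes of the 58278 in the deposited tables, by symbol and with no threshold on a measured value: SNAI1, SNAI2, ZEB1, ZEB2, TWIST1, VIM, EPCAM, ESRP1, ESRP2 and GRHL2. RNA-seq expected counts were available for 12 libraries, 2 biological replicates in each of 6 groups. Untreated cells formed the control group (Ctrl), and the TN group received TNF-α at 5 ng/mL for 3 h. PRTN and BUTN cells received propionate (15 mM) or butyrate (3 mM), respectively, during the 24 h before TNF-α. TNPR and TNBU cells received the same acid at the same dose during the 24 h after TNF-α. No group received an SCFA without TNF-α, and TN cells were collected after 3 h, so in TNPR and TNBU the SCFA and the additional 24 h cannot be told apart. The 2 acids were given at different doses.

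EMT is the process in which epithelial cells loosen their junctions and take on features of mesenchymal cells. SNAI1 (Snail), SNAI2 (Slug), ZEB1, ZEB2 and TWIST1 are transcription factors that bind E-box sequences and are known to repress epithelial genes such as that of E-cadherin. VIM encodes vimentin, an intermediate filament protein of mesenchymal cells that is also abundant in cultured epithelial lines. EPCAM is an epithelial surface adhesion molecule, ESRP1 and ESRP2 are epithelial splicing regulators, and GRHL2 is a transcription factor that maintains the epithelial state. In the kidney, EMT programmes of tubular epithelial cells have been studied mainly in relation to fibrosis.

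In the SCFA-treated cells, EMT transcription factors moved in opposite directions. SNAI1 and SNAI2 rose in all 4 SCFA groups vs TN, whereas ZEB2 fell by 1.88 to 2.37 and EPCAM by 1.37 to 1.91 on the log2 scale. ZEB1 and VIM moved by less than 1.5-fold in every comparison, and GRHL2 was not detected. By the criteria given below, TNF-α alone changed 1 of the 9 tested genes, ZEB2, which was higher, and 1.30% of all tested genes. ZEB2 no longer passed when the model held only TN and Ctrl. In the SCFA groups, 37.9% to 41.8% of all tested genes changed vs TN.

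Library totals ranged from 27269986 to 33851130 expected counts, so that 3 counts corresponded to between 0.0886 and 0.11 CPM (counts scaled to the library total). Median absolute log2 differences between replicates were 0.113 to 0.149 in Ctrl, TN, PRTN and BUTN, and 0.194 and 0.222 in TNPR and TNBU. No pair of replicates agreed within counting noise. Of 19 proximal tubule markers, 10 reached 1 CPM in Ctrl and in TN and 12 or 13 in the SCFA groups. PAX8, KRT8 and KRT18 were abundant, whereas the transporter gene SLC22A6 was at 0 in all 12 libraries and SLC34A1 stayed below 0.1 CPM, so the tubular identity in the label was borne out only in part. Differences were tested with limma-voom over all 24342 genes that passed a filter on low counts, and a gene was called when it changed by more than 1.5-fold with a Benjamini-Hochberg adjusted p below 0.05. Levels are given as CPM after TMM scaling, and log2 fold changes with their standard error (SE). Of the 10 genes, 9 passed the filter.

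**Figure D1:**
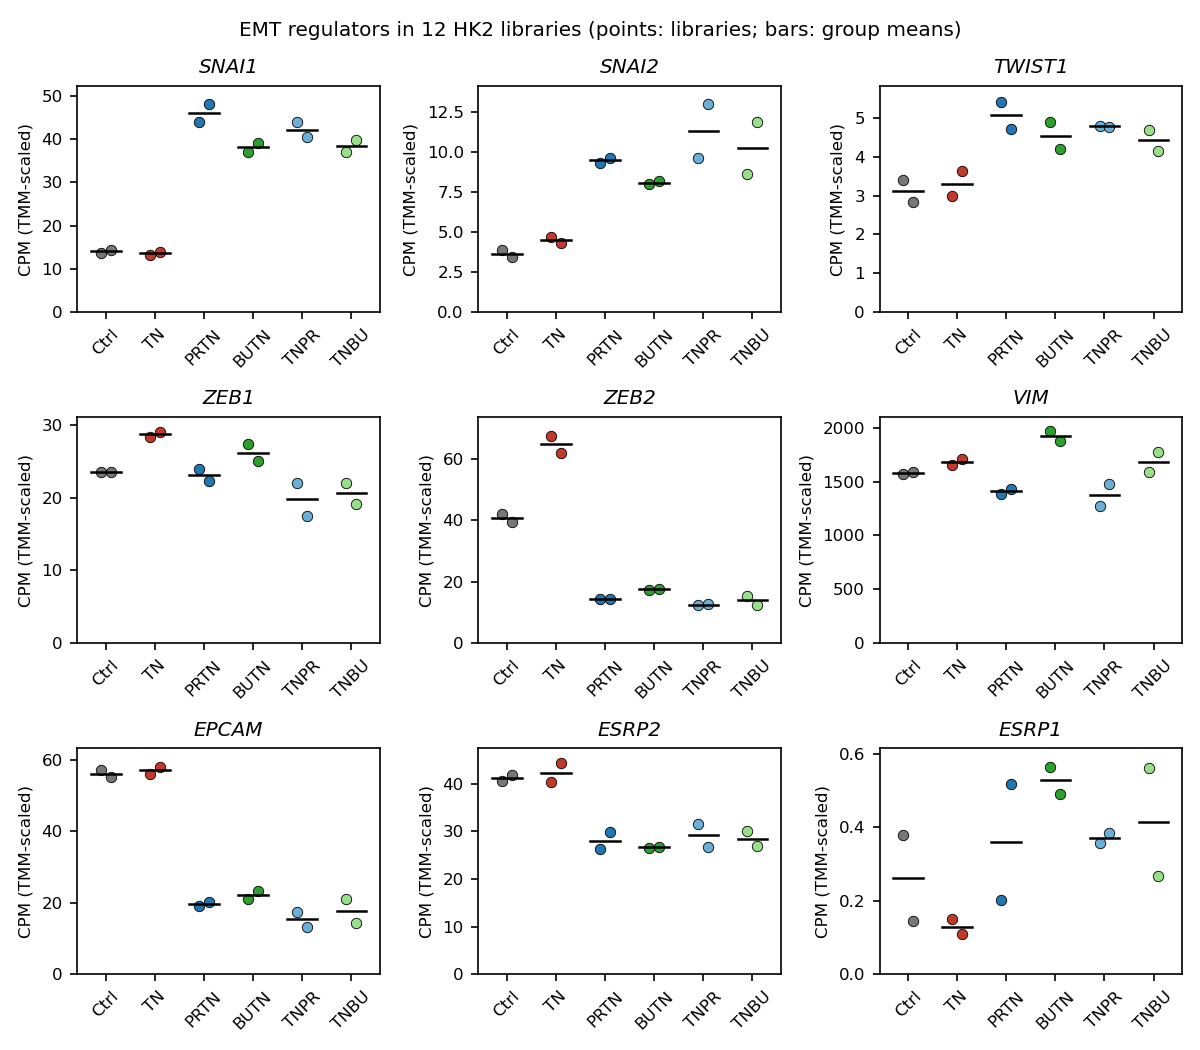
Levels of the 9 detected EMT regulators, in TMM-scaled CPM on linear axes that start at 0, with 1 point for each library and a bar at the mean of each group of 2. SNAI1, SNAI2 and TWIST1 sit higher in every SCFA library than in any library without SCFA, while ZEB2, EPCAM and ESRP2 sit lower.

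SNAI1 (ENSG00000124216.3, chr20:49982980-49988886, plus strand, GRCh38) was at 13.8 and 14.3 CPM in Ctrl and at 13.3 and 13.9 CPM in TN. It reached 44.003 and 48.1 CPM after propionate given first (PRTN) and 37.0 and 39.2 CPM after butyrate given first (BUTN). With the acid given last it was at 44.04 and 40.4 CPM (TNPR) and 37.1 and 39.8 CPM (TNBU). The lowest SCFA library was thus well above the highest library without SCFA, and the 2 replicates of each group lay close together. Compared with TN, SNAI1 rose 3.38-fold in PRTN (log2 fold change 1.76, SE 0.09, adjusted p = 9.28e-09), 2.81-fold in BUTN (1.49, SE 0.09, adjusted p = 5.09e-08), 3.11-fold in TNPR (1.64, SE 0.09, adjusted p = 1.6e-08) and 2.83-fold in TNBU (1.5003, SE 0.09, adjusted p = 4.2e-08, limma-voom). TNF-α alone gave a log2 difference of -0.05 (SE 0.10, adjusted p = 0.877, TN vs Ctrl). In bulk RNA, more cells expressing a gene and more RNA of it per cell cannot be told apart, and this holds for every gene below.

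SNAI2 (ENSG00000019549.9, on chromosome 8) was likewise higher in the SCFA groups, at lower levels. It was at 3.88 and 3.44 CPM in Ctrl and 4.69 and 4.34 CPM in TN, against 9.35 and 9.61 CPM in PRTN and 8.01 and 8.18 CPM in BUTN. In TNPR it reached 9.63 and 13.0 CPM and in TNBU 8.65 and 11.9 CPM, so the replicates of the late-treated groups were further apart than those of the pre-treated ones, without overlapping the groups that had no SCFA. The log2 fold change vs TN was 1.07 (SE 0.20, adjusted p = 0.000507) in PRTN and 0.84 (SE 0.20, adjusted p = 0.00342) in BUTN. It was 1.30 (SE 0.19, adjusted p = 8.85e-05) in TNPR and 1.17 (SE 0.20, adjusted p = 0.000261) in TNBU. TN vs Ctrl gave 0.30 (SE 0.24, adjusted p = 0.598).

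TWIST1 (ENSG00000122691.12, chr7:19020991-19117636, minus strand), a basic helix-loop-helix factor, was the lowest of the EMT transcription factors in CPM. It was at 3.40 and 2.83 CPM in Ctrl and 2.98 and 3.63 CPM in TN, and between 4.15 and 5.41 CPM in the 8 SCFA libraries. The groups did not overlap, but the gap between the highest library without SCFA and the lowest with it was small. TWIST1 rose in PRTN vs TN (log2 fold change 0.62, SE 0.16, adjusted p = 0.00634). This call was lost when TN replicate 1 (0.45, adjusted p = 0.0880) or PRTN replicate 1 (0.52, adjusted p = 0.0519) was left out. In BUTN (0.45, adjusted p = 0.0367) and TNPR (0.54, adjusted p = 0.0151) the change stayed below 1.5-fold, and in TNBU it reached neither criterion (0.42, SE 0.17, adjusted p = 0.0538). TNPR became called without TN replicate 2 (0.65).

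The 2 ZEB genes, which encode closely related zinc finger repressors, behaved differently from the SNAIL genes and from each other. ZEB2 (ENSG00000169554.18, chr2:144364364-144521057, minus strand) was at 42.2 and 39.4 CPM in Ctrl and 67.5 and 62.1 CPM in TN. Its levels under the acids were 14.3 and 14.5 CPM for PRTN, 17.4 and 17.6 CPM for BUTN, 12.3 and 12.7 CPM for TNPR, and 15.4 and 12.5 CPM for TNBU. All 8 SCFA libraries were therefore below the untreated controls as well as below TN. TNF-α raised ZEB2 1.58-fold (log2 fold change 0.66, SE 0.08, adjusted p = 0.000655, TN vs Ctrl), a call that was lost when the model held only these 2 groups (0.68, adjusted p = 0.0628). ZEB2 is also among the genes that the study listed as induced by TNF-α in these samples, so its direction there is not independent evidence.

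Against TN, the log2 fold change of ZEB2 was -2.17 (SE 0.09, adjusted p = 2.04e-09) in PRTN and -1.88 (SE 0.09, adjusted p = 6.74e-09) in BUTN. It was -2.37 (SE 0.09, adjusted p = 1.35e-09) in TNPR and -2.22 (SE 0.09, adjusted p = 2.59e-09) in TNBU. The fall was also called against Ctrl, with log2 fold changes of -1.504 (PRTN), -1.22 (BUTN), -1.71 (TNPR) and -1.55 (TNBU). The adjusted p lay between 2.16e-08 and 2.51e-07. ZEB2 was the member with the largest change in all 4 comparisons with TN, apart from ESRP1 in BUTN, whose fold rests on a few counts.

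ZEB1 (ENSG00000148516.21, chr10:31318495-31529814, plus strand) was at 23.6 and 23.5 CPM in Ctrl and 28.4 and 29.1 CPM in TN. PRTN libraries held 24.0 and 22.3 CPM and BUTN libraries 27.4 and 25.1 CPM. In TNPR it was at 22.1 and 17.6 CPM and in TNBU at 22.1 and 19.1 CPM. TN was the highest group, and the SCFA libraries lay on both sides of Ctrl. None of the comparisons passed the 1.5-fold criterion. The log2 difference from TN was -0.31 (SE 0.10, adjusted p = 0.0221) in PRTN and -0.13 (SE 0.10, adjusted p = 0.296) in BUTN. It was -0.54 (SE 0.11, adjusted p = 0.000816) in TNPR and -0.49 (SE 0.11, adjusted p = 0.00199) in TNBU. ZEB1 became called in TNPR without TN replicate 1 (-0.59) or TNPR replicate 1 (-0.76), and in TNBU without TNBU replicate 1 (-0.62).

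SNAIL and ZEB factors recognise the E-box CAGGTG, so the promoter windows of the members were searched for it on both strands. RefSeq promoter windows (GRCh38.p14, 250 bases before to 50 after a start) were at hand for 3 of the 10 members, with 7 starts for ZEB1 and 1 each for ZEB2 and VIM. The ZEB2 and VIM windows held no CAGGTG, while 2 of the 7 ZEB1 windows held it, 1 of them with 3 copies. Of 34796 promoter windows of this length, 20.6% held at least 1 copy and 0.621% held 3 or more. The 4 ZEB1 matches are shown with the bases beside them, because they are the sequences that SNAIL and ZEB factors recognise. Capitals mark the E-box, which reads CACCTG where it lies on the other strand.
ZEB1 chr10:31318352-31318373, plus strand: ggtgacagCAGGTGagggccgg
ZEB1 chr10:31318966-31318987, plus strand: ccccaccaCACCTGaggaaaac
ZEB1 chr10:31319123-31319144, plus strand: tcgtaaacCAGGTGcggtgggg
ZEB1 chr10:31319241-31319262, plus strand: gatggcccCAGGTGtaagcgca
A match describes the letters in the window and not binding, which was not measured.

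VIM (ENSG00000026025.15, chr10:17228241-17237593, plus strand) was the most abundant member by far. It was at 1572 and 1588 CPM in Ctrl and 1656 and 1709 CPM in TN. Propionate gave 1386 and 1435 CPM (PRTN) or 1278 and 1474 CPM (TNPR), and butyrate 1967 and 1875 CPM (BUTN) or 1592 and 1778 CPM (TNBU). Both propionate groups lay below TN and BUTN lay above it, but no difference reached 1.5-fold. The log2 difference from TN was -0.25 for PRTN (SE 0.07, adjusted p = 0.00654), 0.19 for BUTN (SE 0.07, adjusted p = 0.0295), -0.29 for TNPR (SE 0.07, adjusted p = 0.00258) and 0.00 for TNBU (SE 0.07, adjusted p = 0.998, limma-voom).

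EPCAM (ENSG00000119888.10, chr2:47345158-47387601, plus strand) was at 57.0 and 55.1 CPM in Ctrl and 56.1 and 58.1 CPM in TN. PRTN libraries held 19.2 and 20.1 CPM, BUTN libraries 21.0 and 23.2 CPM, TNPR libraries 17.3 and 13.3 CPM, and TNBU libraries 21.1 and 14.3 CPM. Every SCFA library was below every library without SCFA. EPCAM fell vs TN by 1.54 on the log2 scale in PRTN (SE 0.14, adjusted p = 9.7e-07), by 1.37 in BUTN (SE 0.13, adjusted p = 2.81e-06), by 1.91 in TNPR (SE 0.14, adjusted p = 2.27e-07) and by 1.72 in TNBU (SE 0.14, adjusted p = 5.82e-07). TN vs Ctrl gave a log2 difference of 0.03 (SE 0.12, adjusted p = 0.974), which turned to -0.03 under scaling by library size alone.

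ESRP2 (ENSG00000103067.13, chr16:68229033-68238102, minus strand) showed the same direction as EPCAM with a smaller change. It was at 40.5 and 41.8 CPM in Ctrl and 40.3 and 44.4 CPM in TN, and between 26.3 and 31.5 CPM in the 8 SCFA libraries, with no overlap. ESRP2 fell by 0.60 on the log2 scale in PRTN vs TN (SE 0.09, adjusted p = 0.000152) and by 0.67 in BUTN vs TN (SE 0.10, adjusted p = 7.06e-05). In TNPR (-0.54, adjusted p = 0.000329) and TNBU (-0.58, adjusted p = 0.000226) the change lay just under 1.5-fold, so the 4 groups fall on either side of that criterion by little. Both calls were lost under scaling by library size alone (-0.44 for PRTN, -0.51 for BUTN), and the PRTN call also without TN replicate 2 (-0.55) or PRTN replicate 1 (-0.50). Conversely, TNPR and TNBU were called without TN replicate 1 (-0.64 and -0.66) or without replicate 1 of their own group (-0.70 and -0.69).

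ESRP1 (ENSG00000104413.15, on chromosome 8), the paralog of ESRP2, was close to the limit of detection. Its expected counts were 11 and 4 for Ctrl, 4 and 3 for TN, 7 and 17 for PRTN, 18 and 17 for BUTN, 12 and 12 for TNPR, and 16 and 8 for TNBU. The groups with and without SCFA overlapped. The rise in BUTN vs TN was called (log2 fold change 1.90, SE 0.64, adjusted p = 0.0244), but not by DESeq2 (2.06, adjusted p = 0.0697), nor without TN replicate 1 (2.08, adjusted p = 0.0951), TN replicate 2 (1.67, adjusted p = 0.141) or BUTN replicate 1 (1.77, adjusted p = 0.0733). The other 3 SCFA groups gave log2 differences of 1.22 to 1.47 with adjusted p between 0.0811 and 0.146, of which PRTN became called without PRTN replicate 1 (1.88) and TNBU without TNBU replicate 2 (1.997). GRHL2 (ENSG00000083307.10, on chromosome 8) had 0 counts in all 12 libraries, which allows a level of up to 0.11 CPM in the shallowest library (3 counts, counting error only).

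Per kilobase of the canonical transcript, the levels of different members can be set side by side. In Ctrl, VIM stood at 734 CPM per kb, followed by EPCAM at 36.2, ESRP2 at 12.01, SNAI1 at 8.24, ZEB2 at 4.41, ZEB1 at 3.97, TWIST1 at 1.91, SNAI2 at 1.68 and ESRP1 at 0.0692 CPM per kb. Under the SCFAs, SNAI1 reached 22.4 to 27.0 CPM per kb and EPCAM 9.89 to 14.3 CPM per kb, so the order of the 2 genes was inverted. ZEB2, which in TN exceeded ZEB1 (6.99 against 4.84 CPM per kb), stood below it in every SCFA group, at 1.35 to 1.89 against 3.34 to 4.42 CPM per kb.

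**Figure D2:**
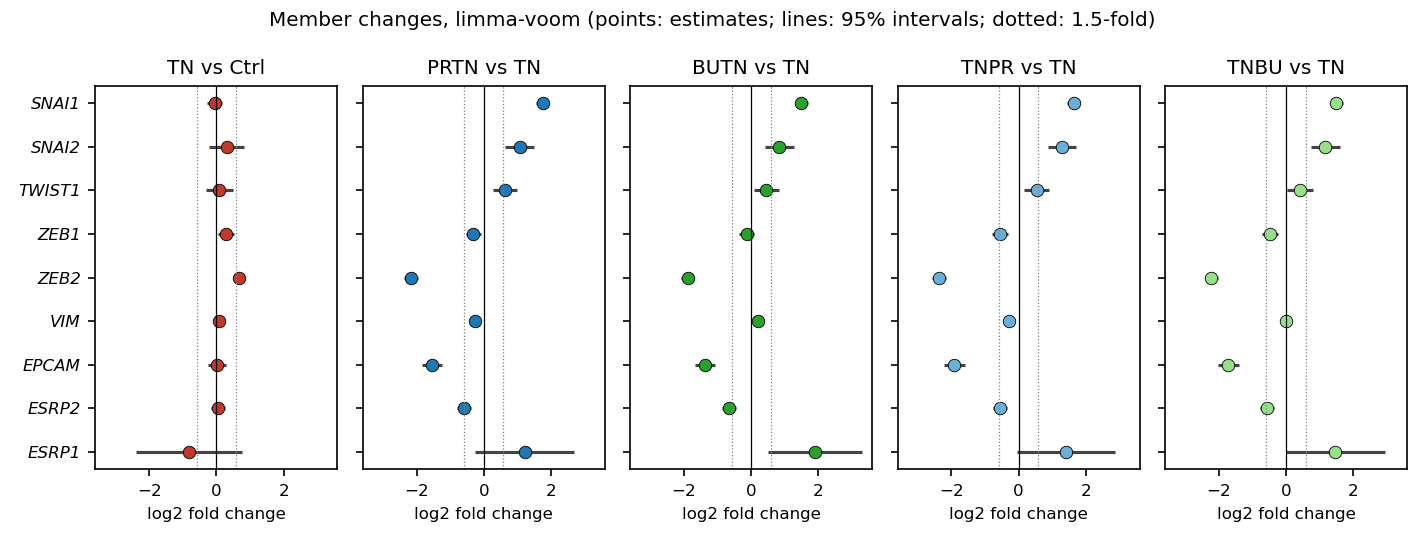
Log2 fold changes of the 9 tested EMT regulators in 5 comparisons, with 95% intervals from limma-voom; dotted lines mark 1.5-fold. In TN vs Ctrl the points of ZEB2 and ESRP1 lie past the line, ESRP1 with a wide interval that includes 0 and no call. SNAI1, SNAI2, ZEB2, EPCAM and ESRP1 lie past it in all 4 comparisons with TN, ESRP1 with wide intervals and a call only in BUTN.

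Across the genome the SCFA groups differed widely from TN, and the members have to be read against that. In PRTN vs TN 6 of the 9 tested members were called, where 40.6% of all tested genes were. Of these, 3 were higher (23.9% of all genes) and 3 lower (16.7%). BUTN vs TN also gave 6 members (37.9% of all genes), 3 of them higher (23.1%) and 3 lower (14.8%). There were 4 members in TNPR vs TN (41.8%), 2 higher (24.9%) and 2 lower (16.9%), and 4 in TNBU vs TN (41.6%), 2 higher (25.0%) and 2 lower (16.5%). In TN vs Ctrl 1 member was called (1.30% of all genes), ZEB2, which was higher (0.764% higher and 0.534% lower over all genes). Between the 8 SCFA libraries and the 4 others, 3 members (SNAI1, SNAI2 and TWIST1) lay higher without overlap, as did 27.6% of all tested genes, and 3 (ZEB2, EPCAM and ESRP2) lay lower, as did 23.4%. Together these are 6 of the 9 tested members, against 50.9% of all tested genes. With only 9 tested members, of which 4 to 6 were called, these counts say nothing particular about the list. The median log2 fold change of the members vs TN was -0.25 (PRTN), 0.19 (BUTN), -0.29 (TNPR) and 0.00 (TNBU), against 0.09, 0.08, 0.12 and 0.09 for all genes. These 4 comparisons share the 2 TN libraries.

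Against Ctrl, 5 members were called for PRTN (39.4% of all genes), 5 for BUTN (36.9%), 5 for TNPR (40.4%) and 4 for TNBU (40.0%). SNAI1 and SNAI2 were higher, and ZEB2 and EPCAM lower, than in untreated cells in all 4 groups. TWIST1 was called higher in PRTN (0.70) and TNPR (0.62), and ESRP2 lower in BUTN (-0.63). The TWIST1 calls fell short without Ctrl replicate 2 (0.57 and 0.49), that of TNPR also without TNPR replicate 1 (0.58), and the ESRP2 call under library size alone (-0.53). Without Ctrl replicate 1, TWIST1 was called in BUTN (0.67) and TNBU (0.63) too. When the groups were put in order of level, adjacent groups differed past both criteria only where SCFA groups met the others: between BUTN and Ctrl for SNAI1, ZEB2 and EPCAM and between BUTN and TN for SNAI2. The exception was ZEB2, which also separated TN from Ctrl.

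Propionate and butyrate, at their different doses, were compared within each order of treatment. None of the 9 tested members was called in PRTN vs BUTN (0.168% of all genes) or in TNPR vs TNBU (0.00822% of all genes), by limma-voom, edgeR or DESeq2. At an unadjusted p under 0.05 there were 3 in the first comparison (SNAI1, ZEB2 and VIM) and 1 in the second (VIM). VIM was lower in PRTN than in BUTN by 0.45 on the log2 scale (SE 0.07, 95% interval -0.59 to -0.30, adjusted p = 0.019), which is less than 1.5-fold. The corresponding log2 difference in TNPR vs TNBU was -0.29 (95% interval -0.44 to -0.15, adjusted p = 0.304). For SNAI1 the PRTN vs BUTN difference was 0.27 (95% interval 0.11 to 0.43, adjusted p = 0.121) and for ZEB2 -0.28 (95% interval -0.50 to -0.07, adjusted p = 0.222). In PRTN vs BUTN the intervals for SNAI2, ZEB1, TWIST1, EPCAM and ESRP2 included 0 and reached at most 0.58 in either direction, whereas for ESRP1 the interval ran from -1.74 to 0.38. These intervals do not show that the acids act alike.

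The order of treatment was compared in the same way. None of the 9 members was called in TNPR vs PRTN (0.160% of all genes) or in TNBU vs BUTN (0.267% of all genes), by any of the 3 tools, and 1 and 4 of them, respectively, had an unadjusted p under 0.05. ZEB2 was lower in TNBU than in BUTN by 0.33 (95% interval -0.56 to -0.11, adjusted p = 0.169) and ZEB1 by 0.35 (95% interval -0.58 to -0.12, adjusted p = 0.167) on the log2 scale. EPCAM was lower by 0.35 (95% interval -0.68 to -0.02, adjusted p = 0.318) and became called without TNBU replicate 1 (-0.64, adjusted p = 0.0254). Whether the effect of order differed between the acids was tested as an interaction, and no member passed, the smallest unadjusted p being 0.141 for VIM.

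Other transcription factors linked to EMT were taken as a list of 15 genes, of which 10 passed the filter. In PRTN, TNPR and TNBU vs TN, 6 of them were higher and 2 lower, and in BUTN vs TN 5 were higher and 2 lower, while none was called in TN vs Ctrl. Their median log2 fold change vs TN was between 0.68 and 0.79. For this list and those that follow, the reference is the whole set of tested genes, of which 23.1% to 25.0% were higher and 14.8% to 16.9% lower in the SCFA groups, with medians of 0.08 to 0.12. HMGA2, a chromatin protein known to induce SNAI1 and TWIST1 in other systems, had the largest mean change over the 4 SCFA groups. It fell from a mean of 1165 CPM in TN to between 125 and 194 CPM (log2 fold change -3.22 to -2.59, SE 0.09, adjusted p between 2.28e-10 and 1.06e-09), and so moved against SNAI1. SNAI3, the third SNAIL gene, rose from 0.588 CPM to between 3.88 and 4.44 CPM (2.74 to 2.93, SE 0.30 to 0.31). SOX4 rose from 139 CPM to between 231 and 306 CPM (0.73 to 1.14, SE 0.10 to 0.11), and KLF8 rose from 0.291 CPM to between 1.10 and 1.40 CPM (1.93 to 2.27).

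Among other epithelial transcription factors more genes were higher than lower. Of 15 listed genes 13 passed the filter, and in each SCFA group 8 were higher and 1 lower than in TN, against none in TN vs Ctrl. GRHL1, the grainyhead-like paralog of GRHL2, rose from 4.58 CPM in TN to between 20.9 and 21.7 CPM (log2 fold change 2.19 to 2.25, SE 0.14). ELF3, an epithelial ETS factor, rose from 201 CPM to between 391 and 471 CPM (0.96 to 1.23, SE 0.10). KLF5 rose from 46.8 CPM to between 85.8 and 104 CPM (0.87 to 1.15, SE 0.07), and EHF, another epithelial ETS factor, from 0.146 CPM to between 0.574 and 1.17 CPM (1.80 to 2.81).

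Epithelial junction and surface genes were divided, with more genes higher than lower, as among all tested genes. Of 32 listed genes 31 passed the filter. In PRTN vs TN 17 were higher and 6 lower. BUTN gave 18 higher and 6 lower, TNPR 13 and 7, and TNBU 16 and 7, while TN vs Ctrl gave 1 higher and 2 lower. The median log2 fold change was 0.82, 0.98, 0.53 and 0.69, or 0.60, 0.70, 0.44 and 0.59 with RAB25, which had 0 counts in TN, held at its bound against the floor of 3 counts per library. CDH1, which encodes E-cadherin and is the best known target of SNAI1 and ZEB repression, had 7 and 8.19 expected counts in Ctrl and 2 and 4 in TN. SCFA libraries held 494.5 and 439.15 (PRTN), 460 and 475.71 (BUTN), 364.79 and 283.89 (TNPR), and 348.53 and 252.28 (TNBU). CDH1 was therefore near the floor in the libraries without SCFA. Its mean was 0.267 CPM in Ctrl and 0.109 CPM in TN, against 9.94 to 14.1 CPM in the SCFA groups. The limma-voom log2 fold change vs TN was 6.34 to 6.84 (adjusted p between 2.76e-06 and 5.43e-06). As a ratio of scaled counts, CDH1 was between 91.0 and 128 times its TN level, which rests on the few TN counts. The 4 exact 95% counting intervals had a lowest bound of 41.6 and a highest of 350.

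KRT19, a keratin of simple epithelia, rose from 4.53 CPM in TN to between 82.4 and 119 CPM (log2 fold change 4.18 to 4.71, SE 0.10). ERBB3 rose from 1.34 CPM to between 14.8 and 15.4 CPM (3.51 to 3.58, SE 0.25 to 0.26). TJP3, which encodes the tight junction protein ZO-3, rose from 1.82 CPM to between 18.7 and 21.2 CPM (3.36 to 3.54, SE 0.20). The 6 genes of this list that were called lower in all 4 SCFA groups are named here after their values were seen. CRB3, a subunit of the apical Crumbs polarity complex, fell from 6.77 CPM in TN to between 1.28 and 1.63 CPM (-2.39 to -2.04). The desmosomal genes PKP3 (28.9 CPM to between 6.12 and 9.51 CPM), DSP (343 CPM to between 151 and 176 CPM) and DSG2 (356 CPM to between 171 and 221 CPM) also fell. The other two were MARVELD2, which encodes the tricellular junction protein tricellulin, and AP1M2, an epithelial adaptor subunit of vesicle sorting. CLDN1 was the seventh lower gene in TNPR and TNBU. EPCAM and ESRP2 thus fell together with some epithelial genes, while CDH1, KRT19 and TJP3 rose in the same libraries.

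Mesenchymal genes were divided as well. All 34 listed genes passed the filter, and 14, 16, 14 and 15 of them were higher and 10, 9, 10 and 9 lower vs TN in PRTN, BUTN, TNPR and TNBU, respectively, against 1 higher in TN vs Ctrl. The median log2 fold change was between 0.38 and 0.50. DES, which encodes the muscle intermediate filament desmin, rose from 0.453 CPM in TN to between 33.1 and 51.3 CPM (log2 fold change 6.25 to 6.88, SE 0.46). MMP2, a matrix metalloproteinase, was at 0 counts in both TN libraries and at 0.972 to 1.44 CPM in the SCFA groups, at least 8.86-fold higher against a floor of 3 counts per library. COL3A1 and POSTN, genes of the extracellular matrix, were called higher in the 4 groups from levels of 0.13 CPM or less. In contrast, CDH2, which encodes N-cadherin, fell from 308 CPM to between 145 and 155 CPM (-1.09 to -0.99, SE 0.06). FN1 (fibronectin) fell from 14020 CPM to 8026 CPM in PRTN (-0.80), 7159 CPM in TNPR (-0.98) and 8367 CPM in TNBU (-0.77), and was at 9393 CPM in BUTN (-0.58, under 1.5-fold). Other abundant genes of this list, named after their values were seen, moved both ways. Lower were VCAN (467 CPM in TN, 99.0 to 117 CPM in the SCFA groups), AXL (207 CPM, 55.8 to 60.1 CPM) and LOX (149 CPM, 43.5 to 55.0 CPM). MMP14 (231 CPM, 73.9 to 99.7 CPM) and TAGLN (388 CPM, 132 to 188 CPM) were lower too. Higher were COL1A1 (41.4 CPM, 161 to 196 CPM) and NES (178 CPM, 281 to 325 CPM).

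Most corepressors through which SNAIL and ZEB proteins are known to act were not called. Of 17 listed genes, none was called higher vs TN and 6, 5, 5 and 5 were lower in PRTN, BUTN, TNPR and TNBU, with medians between -0.25 and -0.07, and 11 or 12 were not called. Against Ctrl, 5 were lower in each SCFA group and 1, LIMD1, was higher in PRTN (0.63), BUTN (0.72) and TNBU (0.63). AJUBA, a LIM protein that binds the SNAG domain of Snail, fell from 236 CPM in TN to between 62.9 and 66.8 CPM (log2 fold change -1.91 to -1.82, SE 0.07, adjusted p between 5.94e-10 and 1.15e-09). The histone H3K9 methyltransferase genes SUV39H1 (-1.05 to -0.95, SE 0.08) and SETDB1 (-0.88 to -0.69, SE 0.06) and the AJUBA relative WTIP (-0.93 to -0.72, SE 0.17) fell too.

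**Figure D3:**
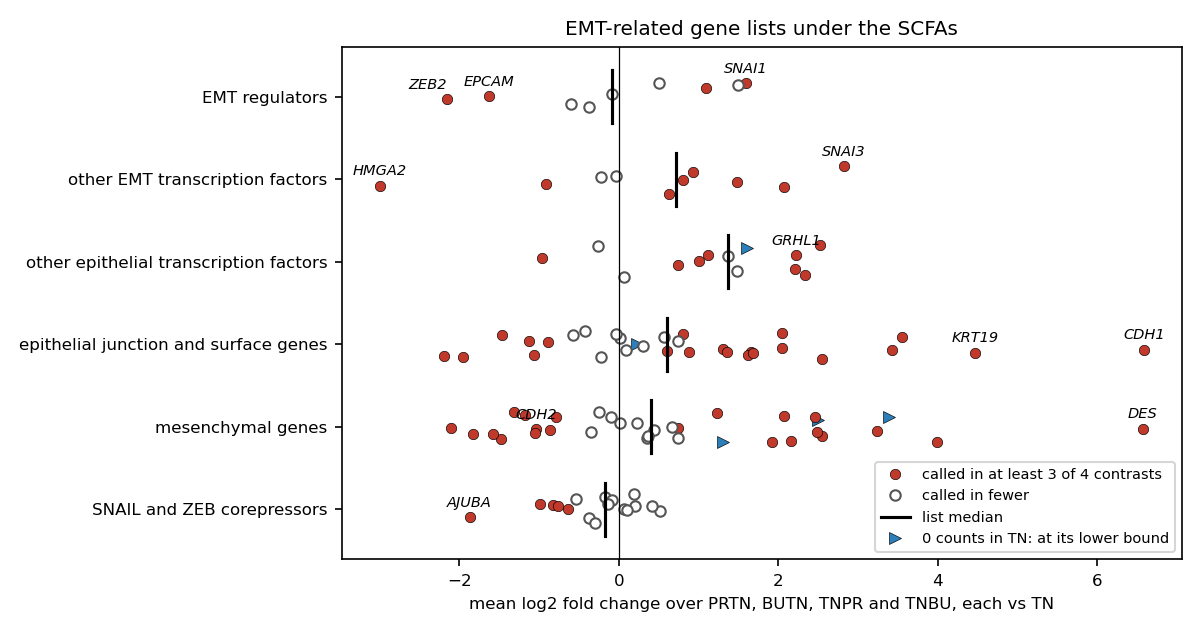
Mean log2 fold change over the 4 SCFA groups, each vs TN, of the tested genes of 6 EMT-related lists, 1 symbol for each gene; triangles are genes with 0 counts in TN, drawn at their lower bound, and vertical bars are list medians. Every list except the corepressors holds genes called on both sides of 0, with CDH1 and DES farthest to the right and HMGA2 farthest to the left.

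Antisense genes of the loci were counted as well. Because the strand setting of the counting is not given in the sources used here, reads of a gene and of its antisense partner cannot be told apart with certainty. ZEB1-AS1 was at 3.12 and 2.29 CPM in Ctrl and 2.16 and 2.94 CPM in TN, and between 5.44 and 8.54 CPM in the SCFA libraries. It rose vs TN in all 4 groups (log2 fold change 1.21 to 1.64, SE 0.20 to 0.21, adjusted p between 1.62e-05 and 0.000294), while ZEB1 itself was not called. VIM-AS1 was called higher in BUTN (1.00, adjusted p = 0.0206), TNPR (0.99, adjusted p = 0.0216) and TNBU (1.09, adjusted p = 0.0138) and was at 0.59 in PRTN (adjusted p = 0.161). SNAI3-AS1 rose in the 4 groups (0.79 to 1.04), and ZEB2-AS1 stayed at or below 0.155 CPM, near the floor.

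Markers of other cell types moved in the same libraries. The 10 fibroblast markers summed to 53.5 to 60.6 CPM without SCFA and 205 to 258 CPM with it, most of it from COL1A1 and LUM. Vs TN, 6 or 7 of them were called higher, and 2 lower in PRTN, BUTN and TNPR and 1 in TNBU. THY1 went from 0.577 CPM in TN to between 0.189 and 0.379 CPM, and DCN from 0.989 CPM to between 0.496 and 0.556 CPM. PDGFRA and COL1A2 had 0 counts in both TN libraries. The 10 endothelial markers summed to 20.7 to 24.9 CPM and 68.6 to 78.9 CPM, respectively, nearly all from ESAM. The 10 leukocyte markers summed to 29.1 to 53.9 CPM over all libraries, mainly from CD68, and PTPRC did not exceed 0.152 CPM. The part of these genes in the results for the EMT regulators was not tested.

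The genes whose profiles were most like those of the members over the 12 libraries were found by Pearson's r of log2 CPM among 10172 genes with a mean of at least 10 CPM (10173 for members below that level). The libraries fall into those with and without SCFA, so a high r describes mainly that step, and 2902 genes had r above 0.9 with ZEB2, 2961 with EPCAM and 2167 with SNAI1. The nearest were PSMD12 for ZEB2 (0.997), JADE2 for EPCAM (0.997), PIGH for SNAI1 (0.998), PREP for SNAI2 (0.993), FARSA for ESRP2 (0.981) and TRIM35 for TWIST1 (0.973). ZEB1 had 22 such genes, led by IRF1 (0.968), VHL and TNFAIP2 (0.963). VIM had 1, PHLDA3 (0.932), and ESRP1 had none.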

How the data were processed

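The deposited values were expected counts per gene, which the authors estimated with RSEM after alignment with STAR 2.6.1a to GRCh38 with GENCODE annotation, from stranded mRNA libraries of HK-2 cells. Expected counts are estimates that share reads between similar transcripts, and between 18.0% and 20.1% of genes had values that were not whole in a library. The treatment of each library was taken from its source label, because the general treatment text names other agents.

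Counts were not rounded. Genes with a geometric mean of at least 1 (1 added before and subtracted after) were kept, 24342 of 58278. TMM scaling and limma-voom (R 4.3.3, limma 3.58.1, edgeR 4.0.16) were run in 1 model of 6 groups over all 12 libraries, so that groups of 2 share the spread. P-values were adjusted by Benjamini-Hochberg over all kept genes, and calls needed more than a 1.5-fold change at an adjusted p below 0.05. The p-values set each difference against the spread between biological replicates of 1 cell line. The scripts were tested on simulated data, with the same spread for all genes and changes planted only in genes above a minimum count. That test does not cover genes with few counts, such as ESRP1, or replicates that lie further apart. Gene positions came from GENCODE v44 and promoter windows from RefSeq.

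The members and the lists were chosen with earlier results of these data known. Named genes were the 10 members, the antisense genes, the 3 genes most like each member, CDH1, CDH2 and FN1, and for each other list the 4 genes with the largest mean absolute log2 fold change vs TN, among those called for 3 or more of the 4 SCFA groups and reaching 1 CPM in 1 of the groups. Other genes are named as marker genes, where a count turns on them, or as abundant genes of the mesenchymal list, after their values were seen.

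The alternatives were edgeR quasi-likelihood and DESeq2 1.42.0 on rounded counts, relative log expression factors, library size alone, 2 other filters, a fold over 2, only the groups compared, a replicate block, and leaving out each library.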

Additional observations from a re-analysis of the deposited data

How the results depend on the processing

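Of 1404 alternative values for the members, 1323 kept their direction and their side of the threshold, 16 lost a call, 28 gained a call and 37 turned direction, the latter in 22 results whose main log2 fold change was at most 0.60 in size. The number of members called in TN vs Ctrl went from 1 to 0 with a fold over 2, and to 0 with only the groups compared, where the adjusted p of ZEB2 missed the threshold. In TNBU vs BUTN it ranged from 0 to 1 when single libraries were left out, EPCAM being called without TNBU replicate 1. Library size alone moved the median log2 fold change of all genes vs TN by 0.153 to 0.196, and under it the direction turned for EPCAM (-0.0297) and ESRP2 (-0.0155) in TN vs Ctrl, ZEB1 in BUTN vs TN (0.0192) and PRTN vs Ctrl (0.0744), and TWIST1 in TNBU vs BUTN (0.0098). VIM in TNBU vs TN turned with no filter (-0.0248), with the edgeR filter (-0.0240) and with only the groups compared (-0.0146). The cause of these turns was not tested.

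With each library left out in turn, values on both sides of 0 were seen for TWIST1 (-0.0597 to 0.22) and ESRP2 (-0.0286 to 0.11) in TN vs Ctrl, VIM in TNBU vs TN (-0.0797 to 0.0430), ZEB1 (-0.0793 to 0.0267) and ESRP1 (-0.23 to 1.07) in PRTN vs Ctrl, ESRP1 in TNPR vs Ctrl (-0.0395 to 1.25) and ESRP2 in PRTN vs BUTN (-0.0207 to 0.16). The same held in TNPR vs TNBU for SNAI2 (-0.11 to 0.36), ZEB1 (-0.24 to 0.10), EPCAM (-0.47 to 0.0750), ESRP1 (-0.59 to 0.43) and ESRP2 (-0.0964 to 0.15), in TNPR vs PRTN for TWIST1 (-0.18 to 0.0202), VIM (-0.14 to 0.0541), ESRP1 (-0.47 to 0.82) and ESRP2 (-0.0721 to 0.17), and in TNBU vs BUTN for SNAI1 (-0.0408 to 0.0534), TWIST1 (-0.15 to 0.0879), ESRP1 (-0.95 to 0.0987) and ESRP2 (-0.0022 to 0.17). A lone sample was then assumed to vary like the other groups.

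Libraries that share a replicate number deviated from their groups with correlations between -0.0458 and 0.109 over 15 pairs of groups. Only the pair of TNPR and TNBU was over 0.1. In both of these groups EPCAM, ZEB1, TWIST1 and ESRP2 were lower, and SNAI2 and VIM higher, in replicate 2 than in replicate 1. SNAI1, ZEB2 and ESRP1 did not move together in this way. A replicate effect limited to TNPR and TNBU was not tested. The replicate block, which fits 1 shift common to all 6 groups, changed the call or direction of 0 of 117 member results and 0 counts. With the block, 1 member was again called in TN vs Ctrl. Vs Ctrl, TWIST1 was also called without the second replicate of BUTN (0.65) or of TNBU (0.59), and ESRP2 without replicate 2 of PRTN (-0.65) or replicate 1 of TNPR (-0.65) or TNBU (-0.64). Depth limits ESRP1 and GRHL2.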
